A study of Mus musculus with 12 samples.

Results

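The opioid peptide precursors and the opioid receptors of the mouse prefrontal cortex were examined, as 7 genes of the 40508 gene names listed in any of the study's expression tables. The genes were chosen by name: the 3 precursors Pdyn, Penk and Pnoc, and the 4 receptors Oprm1, Oprk1, Oprd1 and Oprl1. Male C57BL/6 mice (the J substrain in the study's methods) aged 10 weeks received either cocaine at 20 mg/kg or saline, once a day by intraperitoneal injection for 14 days, and the prefrontal cortex was taken after the final dose, with delays of 2 h, 24 h or 7 d. Saline mice were taken at the same 3 times, which gave 6 groups. Each group had 2 RNA-seq libraries, each made from 5 mice, so the 12 libraries stand for 60 mice. The labels list 12 samples in this way, while their protocol text speaks of 6 libraries. The deposited tables hold 1 value per gene and group, which the authors pooled over both libraries, in FPKM (mapped fragments scaled by transcript length and by library size). There was therefore no spread between libraries, no test and no error on any value below, and the tables hold no read counts or depths.

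Opioid peptides are cut from larger precursor proteins by prohormone convertases and stored in dense core vesicles. Penk encodes proenkephalin, the source of the enkephalins, which act mainly on the delta and mu receptors. Pdyn encodes prodynorphin, the source of the dynorphins and neoendorphins, which act mainly on the kappa receptor. Pnoc encodes prepronociceptin, whose peptide nociceptin acts on its own receptor and binds the classical opioid receptors poorly. The receptors Oprm1 (mu), Oprd1 (delta), Oprk1 (kappa) and Oprl1 (nociceptin) couple to inhibitory G proteins, lower cyclic AMP, open potassium channels and close calcium channels. In the cortex the precursors are made largely by subsets of interneurons and of projection neurons, and dynorphin acting on kappa receptors is known as a brake on dopamine release.

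The coding sequences show what each precursor carries, and they are given because a transcript of each gene encodes a different number and kind of peptides. Each line gives an opioid core (the first 5 codons of an opioid peptide) in capitals with 2 codons on either side in lower case, 5′ to 3′ on the coding strand, from the GENCODE mouse transcripts of the NCBIM37 assembly. Penk held 7 such cores in 268 codons, of which 6 end in the methionine codon and 1 in a leucine codon. Pdyn held 3 cores in 248 codons, all ending in a leucine codon, and Pnoc held 1 in 187 codons, which opens with a phenylalanine codon in place of tyrosine and has a threonine codon in the fifth place. The 2 codons before each core spell a pair of basic residues, lysine or arginine, where convertases cut.
Penk, the first Met-enkephalin: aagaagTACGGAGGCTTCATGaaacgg
Penk, Leu-enkephalin: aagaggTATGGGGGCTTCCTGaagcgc
Penk, the last Met-enkephalin, extended by arginine and phenylalanine: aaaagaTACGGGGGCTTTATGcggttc
Pdyn, alpha-neoendorphin: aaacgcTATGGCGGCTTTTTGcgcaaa
Pdyn, dynorphin A: aaacgcTATGGGGGCTTCCTGcggcgc
Pdyn, dynorphin B: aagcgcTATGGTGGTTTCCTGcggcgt
Pnoc, nociceptin: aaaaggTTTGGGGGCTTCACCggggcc
The cores of the last Penk copy and of dynorphin A thus differ in the tyrosine and phenylalanine codons and in the fifth residue, methionine against leucine. They share both glycine codons and the tyrosine, glycine, glycine and phenylalanine start. The nociceptin core has the glycine pair and the phenylalanine after it in common with them.

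The tissue label was checked against marker genes. Cortical projection neuron markers summed to 3079 to 3389 FPKM over the 6 groups and cortical interneuron markers to 1378 to 1563. A single gene gave a large part of each sum: Nrgn 1637 to 1796 FPKM of the former and Cck 722 to 821 of the latter. Markers of striatal projection neurons, the neighbouring cells richest in Penk and Pdyn, summed to 96.1 to 111 FPKM, and their dopamine receptor Drd2 lay at 0.146 to 0.234. Claustrum and deep layer markers summed to 46.8 to 52.2, olfactory markers to 13.1 to 15.5 and astrocyte markers to 532 to 643 FPKM. Oligodendrocyte markers summed to 630 to 803, microglial to 128 to 143, vascular to 144 to 169 and choroid plexus markers to 1.54 to 7.56. The last 2 sums are those of saline and cocaine at 7 d, where the choroid plexus gene Ttr was at 0.284 and 6.54 FPKM. Ttr was lower in cocaine at 2 h (1.9 and 0.461) and 24 h (1.8 and 1.1). Astrocyte markers summed to 532 in saline and 637 in cocaine at 7 d, and to 643 and 577 at 24 h. The part of such differences in the member values was not tested. Of all these markers only Kcne2 of the choroid plexus list was at 0 in a group. The 3 tables were normalized in separate runs, so any level set across times carries that limit. In bulk tissue, fewer cells of a type and less RNA per cell cannot be told apart.

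Penk was the most abundant member in every group, and Oprk1 and Oprm1 were the lowest by the loci used here. Penk made up 78.1% to 80.7% of the summed precursor FPKM, Pdyn 15.2% to 17.7% and Pnoc 3.96% to 5.26%. The Penk level was 4.42 to 5.3 times the Pdyn level. Among the receptors, Oprl1 was highest, at 13.1 to 14.9 FPKM, which was 3.65 to 4.29 times the level of the Pnoc RNA that encodes its ligand. Oprd1 came next among the receptors. It was above Pnoc at 2 h and 24 h, where its value is that of a locus shared with Epb4.1, and below Pnoc at 7 d, where it had its own. Oprk1 and Oprm1 had mean values under 0.5 FPKM at every time, except that a second Oprm1 locus at 24 h, not used here, had a mean of 0.555. Pdyn and Oprl1 were neighbours in this order, and they exchanged places: Oprl1 was above Pdyn in saline at 2 h and in both groups at 7 d, and Pdyn was above Oprl1 in cocaine at 2 h and in both groups at 24 h.

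**Figure D1:**
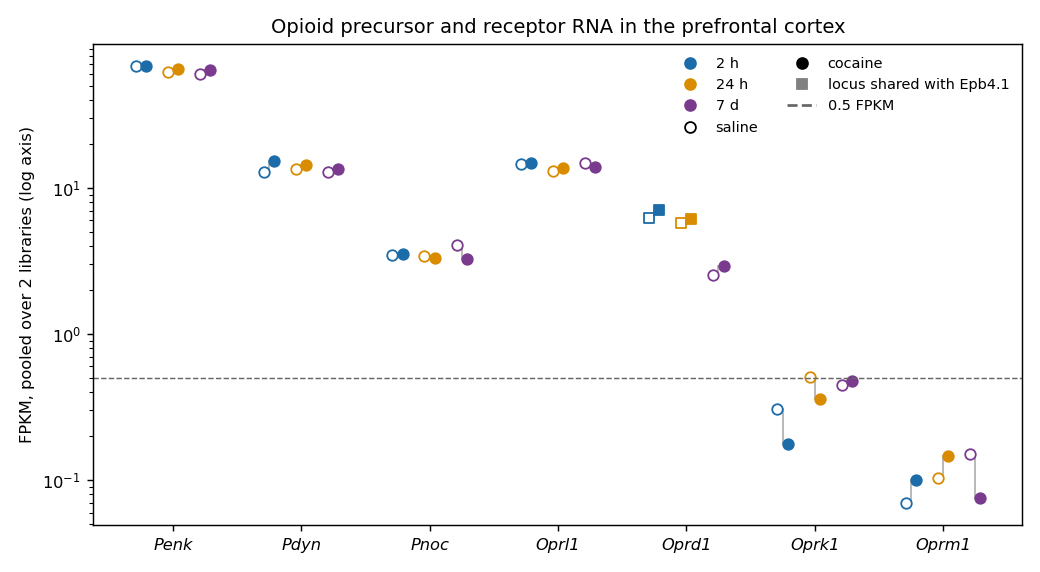
FPKM of the 7 genes (log axis) in saline (open) and cocaine (filled) at 2 h, 24 h and 7 d, each point a value pooled over 2 libraries, with squares for the locus that names both Epb4.1 and Oprd1. Penk sits at 60.2 to 68.5 FPKM, Pdyn and Oprl1 near 13 to 15, and Oprk1 and Oprm1 lie under or close to the dashed line at 0.5 FPKM.

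A difference was described by the log2 ratio of cocaine to saline, computed after 0.1 FPKM was added to both values, which understates the ratio of low genes. A gene was counted as higher or lower where this ratio was at least 0.32 either way and the mean of both groups was at least 0.5 FPKM. Such a gene is called past the fold. In the table for 2 h this held for 16.8% of 15803 loci, in that for 24 h for 12.3% of 16670, and in that for 7 d for 17.2% of 16027. Of the 7 opioid genes, 5 reached 0.5 FPKM at each time (Oprd1 at 2 h and 24 h only through a locus it shares with Epb4.1), and 0 of these 5 were past the fold at 2 h, at 24 h or at 7 d. In order of time the median log2 ratio of those 5 was 0.04, 0.08 and 0.06, beside medians over all such loci of 0.02, 0.01 and -0.01. With a fold of 1.1 in place of that limit, 2 of the 5 were past it at 2 h (the Pdyn locus and the locus shared by Epb4.1 and Oprd1, both higher in cocaine), 0 at 24 h, and 2 at 7 d (Oprd1 higher and Pnoc lower). That smaller fold was passed by 45.3%, 37.2% and 50.4% of all loci at the same times.

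**Figure D2:**
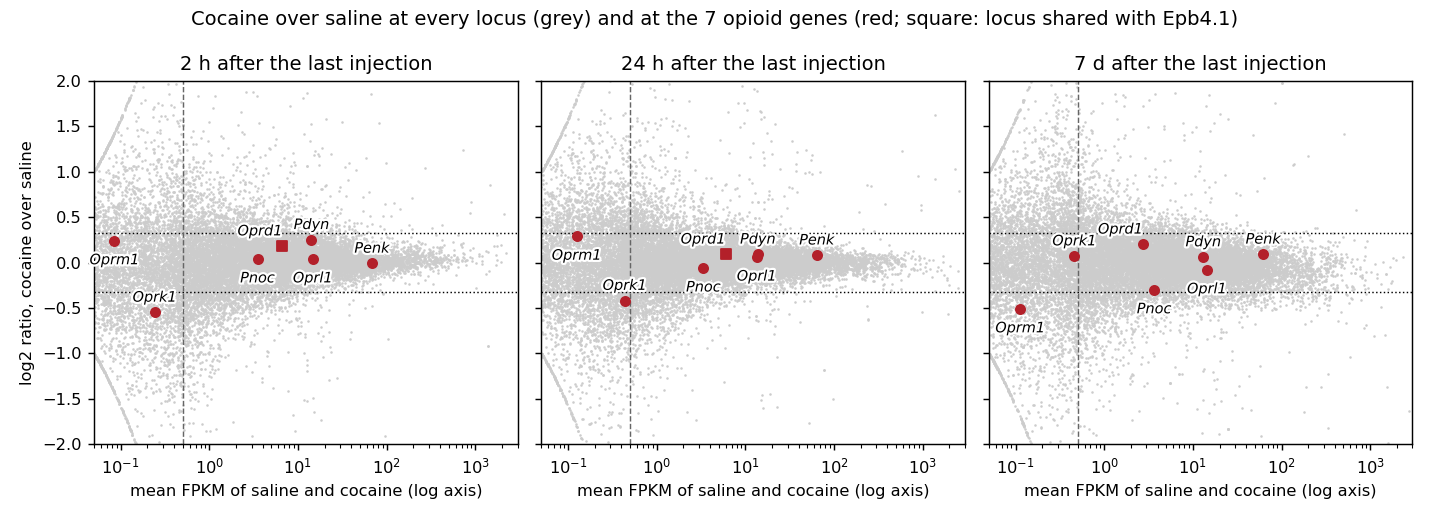
Log2 ratio of cocaine to saline against mean FPKM (log axis) at the 3 times, with every locus between -2 and 2 and above 0.05 FPKM in grey and the 7 genes in red. Dotted lines mark the fold limit of 0.32 and the dashed line 0.5 FPKM. Every member to the right of the dashed line lies between the dotted lines, and the grey cloud widens to the left, where Oprk1 and Oprm1 lie.

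Pdyn, the dynorphin precursor, was higher in cocaine than in saline at all 3 times, by little. At 2 h its level was 12.9 FPKM in saline and 15.4 in cocaine, a ratio of 1.19 and a log2 ratio of 0.25. At 24 h it was 13.4 in saline and 14.3 in cocaine, a log2 ratio of 0.09. At 7 d it was 12.8 in saline and 13.4 in cocaine, a log2 ratio of 0.06. The saline values of the 3 tables differed by 1.04 times from lowest to highest, and the cocaine value at 2 h was the highest of all 6. To give these ratios a scale, they were set beside those of the loci whose mean FPKM was within 2-fold of the gene's own. At 2 h, 12.5% of 4873 such loci had a log2 ratio at least as far from 0 as Pdyn, and their 5th and 95th percentiles were -0.23 and 0.32. The corresponding shares were 41.6% at 24 h and 71.9% at 7 d. The log2 ratio at 2 h was above that at 24 h by 0.16 and above that at 7 d by 0.20, differences that could not be tested. Beside the value at 2 h, the summed striatal markers were 102 FPKM in saline and 111 in cocaine, with 2 higher and 3 lower of 9 that reached 0.5 FPKM, and the claustrum and deep layer markers were 47 and 52.2, with 3 higher of 6. Their part in the Pdyn value was not tested. The locus lies on chromosome 2, at chr2:129686565-129699844 (GRCm38), within the bounds of the RefSeq gene.

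Penk, the enkephalin precursor, had near equal values in both groups at each time. The 2 h values were 68.5 FPKM (saline) and 68.2 (cocaine), the 24 h values 62 and 65.6, and the 7 d values 60.2 and 64. The log2 ratios were -0.01, 0.08 and 0.09, so the cocaine value was the higher at 24 h and 7 d but not at 2 h. By its saline level Penk stood above 91.9% to 93.1% of the loci that reached 0.5 FPKM. For loci of like FPKM the 5th and 95th percentiles were -0.15 and 0.23 (2 h), -0.16 and 0.15 (24 h), and -0.36 and 0.23 (7 d). At least as far from 0 were 93.6%, 32.5% and 60.1% of those loci. The Penk locus of the tables runs over chr4:4133531-4188703 (GRCm38), well past the RefSeq gene at chr4:4133536-4138815, so its value may hold reads from outside the gene. At 7 d the log2 ratio was larger for longer transcripts across genes (Spearman's rho of 0.447 over 12745 genes, which share the libraries, against 0.148 at 2 h and 0.0741 at 24 h). The Penk transcript is short, at 1449 nt, and its log2 ratio at 7 d was 0.20 after the trend over length was taken off.

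Pnoc, the nociceptin precursor, was the only precursor with a lower value in cocaine by over 0.1 on the log2 scale at any time. Its saline level was 3.45 FPKM (2 h), 3.43 (24 h) and 4.05 (7 d), and its cocaine level 3.55, 3.29 and 3.27. The log2 ratios were 0.04, -0.06 and -0.30, and the saline value at 7 d was 1.24 times the cocaine value. That saline value was the highest of the 6, and the cocaine value at 7 d the lowest. Of 4839 loci of like FPKM at 7 d, 17.7% were at least as far from 0, and their 5th and 95th percentiles were -0.42 and 0.36. The ratio at 2 h was above that at 7 d by 0.34, and the ratio at 24 h above it by 0.24, which again could not be tested. The 10 interneuron markers summed to 1522 FPKM in saline and 1378 in cocaine at 7 d. Their median log2 ratio was -0.05, with 0 of 10 past the fold. The most abundant were lower in cocaine: Cck (801 and 722), Sst (262 and 229) and Npy (231 and 202). Vip (49.3 and 43.5) and Pvalb (47.1 and 44.1) were lower too. Gad1 (75.1 and 78.1), Gad2 (19 and 19.7), Lhx6 (3.27 and 3.36) and Reln (13.2 and 13.6) were slightly higher. Slc32a1 was at 21.8 and 21.7. The striatal markers had 1 higher and 3 lower of 9. The Pnoc ratio was -0.23 after the trend over transcript length was taken off. The part of these in the Pnoc value was not tested. The gene lies at chr14:65400673-65425510 (GRCm38) in the tables for 2 h and 24 h.

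Oprl1, the nociceptin receptor, had near equal values throughout. Saline and cocaine mice had 14.5 and 14.9 FPKM at 2 h. The later pairs of values were 13.1 and 13.7 (24 h) and 14.8 and 14 (7 d). The log2 ratios were 0.04, 0.06 and -0.08, and over all 6 groups the highest value was 1.14 times the lowest, the same as for Penk. Of loci of like FPKM, 78.4%, 61.3% and 62.8% were at least as far from 0 at the 3 times. At 7 d its ratio and that of Pnoc were both below 0, while the level of the receptor over its ligand's precursor was 3.65 in saline and 4.29 in cocaine. The Oprl1 ratio at 7 d was -0.00 after the trend over locus span was taken off. Oprl1 lies at chr2:181715016-181721070 (GRCm38) in the tables for 2 h and 24 h, on the same chromosome as Pdyn.

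Oprd1, the delta receptor, had a locus of its own only in the table for 7 d. There, at chr4:132106330-132144521 (GRCm38), it was at 2.54 FPKM in saline and 2.92 in cocaine, a log2 ratio of 0.20, and 40.2% of loci of like FPKM were at least as far from 0. In the tables for 2 h and 24 h a single locus at chr4:131873617-132144532 named both Oprd1 and Epb4.1, a gene of the membrane skeleton. At 2 h that shared locus had 6.25 FPKM with saline and 7.11 with cocaine, a log2 ratio of 0.18. At 24 h it had 5.77 and 6.17, a log2 ratio of 0.09. Reads of the 2 genes could not be told apart there, so these values are not those of the delta receptor alone and are not comparable in level with the value at 7 d. Where Epb4.1 had its own locus, at 7 d, it was at 3.14 FPKM in saline and 3.04 in cocaine.

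Oprk1, the kappa receptor to which dynorphin binds, was low in every group. In saline it was at 0.307, 0.512 and 0.447 FPKM in order of time, and in cocaine at 0.178, 0.358 and 0.474. The log2 ratios were -0.55, -0.42 and 0.07, so the cocaine value was lower at 2 h and 24 h and slightly higher at 7 d. With nothing added before the log the ratio was -0.79 at 2 h and -0.51 at 24 h, and with 1 FPKM added it was -0.15 at both. Loci this low spread widely: 32% of those of like FPKM were at least as far from 0 at 2 h, 29.8% at 24 h and 87.7% at 7 d. At 24 h their 5th and 95th percentiles were -0.79 and 0.72. The 3 saline values themselves differed by 1.67 times, beside saline over cocaine ratios of 1.73 at 2 h and 1.43 at 24 h. Oprk1 lies at chr1:5588493-5606131 (GRCm38).

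Oprm1, the mu receptor and the target of morphine, had the lowest values of the 7 by the locus used. A second locus with the same bounds at 24 h was at 0.503 FPKM in saline and 0.608 in cocaine, and the latter is above the Oprk1 value of 0.358. In saline it was at 0.0697, 0.103 and 0.151 FPKM in order of time, and in cocaine at 0.101, 0.147 and 0.0759. The log2 ratios were 0.24, 0.29 and -0.51, with 66.4%, 56% and 33.2% of loci of like FPKM at least as far from 0. They depend on the amount added before the log: the ratio at 7 d was -0.99 with nothing added and -0.10 with 1 FPKM added, that at 2 h was 0.53 or 0.04, and that at 24 h was 0.52 or 0.06. The 5th and 95th percentiles of those loci reached -1.22 and 1.22 at 2 h, and the saline values of the 3 tables differed by 2.16 times among themselves. The Oprm1 locus spans 311850 bases, chr10:6740629-7052478 (GRCm38). Both low receptors were left out of the counts above. With no limit on level, 1 of them would be past the fold at each time: Oprk1, lower, at 2 h and at 24 h, and Oprm1, lower, at 7 d.

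**Figure D3:**
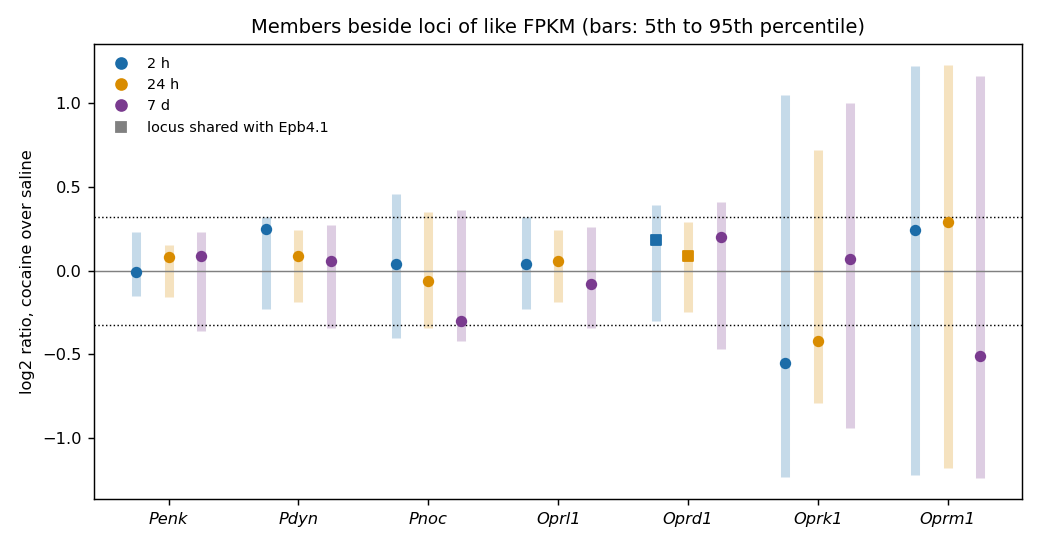
Log2 ratio of cocaine to saline for the 7 genes at 3 times (points), beside the range from the 5th to the 95th percentile of loci whose mean FPKM was within 2-fold of the gene's (pale bars). Dotted lines mark the fold limit of 0.32. All 21 points lie within their bars. Of the genes above 0.5 FPKM, Pdyn at 2 h (0.25) and Pnoc at 7 d (-0.30) lie farthest from 0.

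The other genes of the opioid system were described by 8 lists with 51 genes, of which 50 reached 0.5 FPKM at each time. Past the fold were 7 of the 50 at 2 h (5 higher and 2 lower in cocaine, 14%), 4 at 24 h (3 higher and 1 lower, 8%) and 6 at 7 d (4 higher and 2 lower, 12%), beside the shares over all loci given above. The immediate early genes made up 4 of the 7 at 2 h, 3 of the 4 at 24 h and 3 of the 6 at 7 d.

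The regulators of Pdyn and Penk transcription are a list of 10 that holds the CREB family, the calcium-regulated repressor DREAM, the AP-1 genes and Nr4a1. Of these, 4 were higher in cocaine at 2 h and 3 at each later time, and 0 were lower. The shares of all loci past the fold were 16.8%, 12.3% and 17.2%. The paper already reports Fos and Nr4a1 as changed by cocaine at all 3 times. It marks Junb as changed at 2 h and 7 d, but not at 24 h. The list was drawn up with earlier results of these data known, so its count is no independent result. Fos, an AP-1 subunit induced by neuronal activity, had saline and cocaine values of 2.02 and 14.3 FPKM (2 h), 3.95 and 9.24 (24 h), and 1.59 and 4.66 (7 d). Junb, which pairs with Fos, had 11.4 and 61.6, then 20.2 and 33.7, then 12.9 and 17.9. Nr4a1, an orphan nuclear receptor, had 8.05 and 36.7, then 15.4 and 25, then 8.47 and 12.9. These 3 were higher in cocaine at every time, with the largest ratios at 2 h, while the saline values of each were highest at 24 h. Fosb was at 1.57 and 3.67 FPKM at 2 h, with log2 ratios of -0.09 and 0.10 at the later times. The median log2 ratio of the 10 was 0.17, -0.04 and 0.10. The cyclic AMP response element TGACGTCA and the AP-1 motif TGANTCA, read on both strands, were in 1.79% and 7.81% of 32851 RefSeq promoter windows of equal length around gene starts (GRCm38). Of the 7 opioid genes, 4 had windows in that set (Pdyn, Oprl1, Oprd1 and Oprm1), and 0 of their 9 windows held either motif, which says only that those letters are not in these windows.

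Of the other opioid genes, Ackr3, a scavenger receptor that takes up chemokines and opioid peptides, had 3.19 FPKM with saline and 4.98 with cocaine 2 h after the last dose, a log2 ratio of 0.63. The later values were 3.1 and 3.89 (24 h, a log2 ratio of 0.32 when rounded, just inside the limit) and 3.22 and 3.49 (7 d). Pomc, the precursor of beta-endorphin, was at 1.66 FPKM in saline and 1.01 in cocaine at 7 d, a log2 ratio of -0.66, after 1.08 and 1.27 (2 h) and 1.68 and 1.6 (24 h). The other 2 of this list, Ogfr and Ogfrl1, were not past the fold at any time.

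Of the 7 peptide processing genes, 0 were past the fold at any time, with median log2 ratios of 0.04, -0.01 and 0.00. The shares over all loci were 16.8%, 12.3% and 17.2%, at which 0 of 7 says little. Cpe, the carboxypeptidase that trims the basic residues left after convertase cleavage, had 1328 FPKM with saline and 1436 with cocaine at 2 h, and the convertase Pcsk2 had 128 and 131. Both were picked here as the best known of the list, not for their values. Of the 7 peptide breakdown genes, Ece1, an endothelin converting enzyme that also degrades neuropeptides in endosomes, was lower in cocaine at 24 h (13.2 in saline, 8.65 in cocaine) and higher at 7 d (7.29 and 10.2), with 8.75 and 9.76 at 2 h. Its saline values differed between the tables more than its groups did at any time, from 7.29 to 13.2 FPKM.

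Downstream of the receptors, the counts stand beside shares of all loci past the fold of 16.8% (2 h), 12.3% (24 h) and 17.2% (7 d). At such shares, 0 of 5 or 6 genes says little about a list. Of the 5 inhibitory G protein subunits, of the 5 effector channels that reached 0.5 FPKM (of 6) and of the 6 kinases and arrestins of receptor desensitization, 0 were past the fold at any time. Their median log2 ratios ran from -0.01 to 0.14 for the channels, from -0.03 to 0.15 for the desensitization list and from 0.00 to 0.10 for the G proteins. Of the 6 genes of the RGS list, which shorten G protein signaling, 2 were lower in cocaine at 2 h, 0 at 24 h and 1 at 7 d. Rgs9, a member also of the striatal marker list, had saline and cocaine values of 1.87 and 1.37 FPKM (2 h), 1.98 and 1.79 (24 h), and 2.41 and 1.84 (7 d). Rgs19, which lies near Oprl1 on chromosome 2, had 11.1 and 8.54, then 10.4 and 10.2, then 12.4 and 10.6. Its log2 ratio at 2 h was -0.37, where that of Oprl1 was 0.04.

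**Figure D4:**
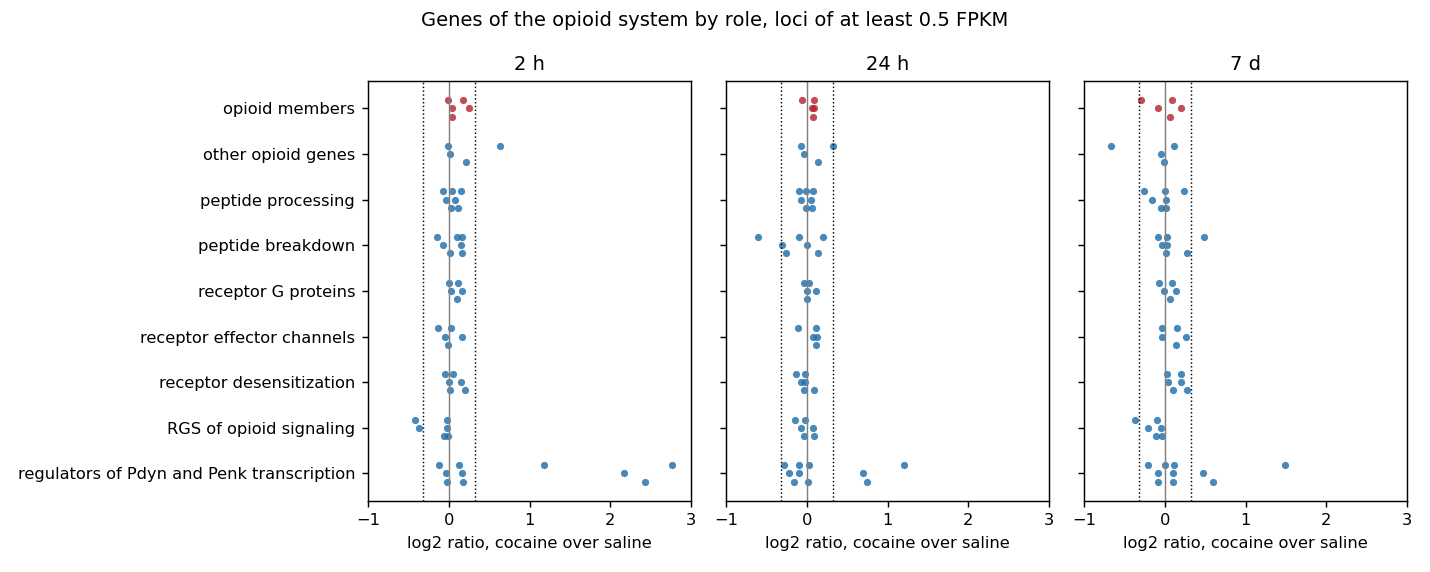
Log2 ratio of cocaine to saline for every gene of the opioid lists with a mean of at least 0.5 FPKM, by list and time, with dotted lines at the fold limit of 0.32 either way. The 5 opioid genes (red) lie between the dotted lines at each time, while Fos, Junb and Nr4a1 in the bottom row lie to the right, up to 2.76 for Fos at 2 h.

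The pattern of Pdyn, Penk, Pnoc and Oprl1 over the 6 groups was compared with that of 14547 genes that reached 0.5 FPKM in every group, by the root mean square difference of their centred log2 values. Oprk1 and Oprm1 were too low for this, and Oprd1 was left out because its locus differs between the tables. For Pdyn the closest genes were D15Ertd621e (0.0159), Rnf19a (0.0168) and Dok7 (0.0192). For Penk they were Cdc27 (0.0151), 1600014C10Rik (0.0196) and Sfmbt1 (0.0198), for Pnoc Bad (0.0135), Msmo1 (0.0167) and Rpl10a (0.0228), and for Oprl1 Pmvk (0.00669), Zfp131 (0.0142) and Msl3 (0.0161). Likeness of this kind was common, since 25.9% of the genes were within 0.1 of Pdyn, 30.8% of Penk, 17.8% of Pnoc and 26.8% of Oprl1.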

How the data were processed

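RNA-seq was done on prefrontal cortex, 12 libraries in 6 groups. Libraries were made from poly(A) RNA with a kit that does not mark strand. Per the labels' processing notes the tools were CASAVA 1.8.2, Trimmomatic 0.32, TopHat2 2.0.12, Cufflinks 2.2.1 and Cuffdiff with GRCm38; the paper's methods name mm9, and the loci of the tables follow GRCm38 (99.8% to 99.9% of named loci overlapped the RefSeq gene of that name). The authors deposited 1 Cuffdiff table per time with FPKM per locus, 1 value a group pooled over its 2 libraries. Their fold changes, test statistics, p-values and q-values were not used.

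Here log2 ratios were computed from the FPKM with 0.1 added (Python 3.11.15, pandas 2.3.3, numpy 2.4.6) and checked on simulated data. Past the fold means 1.25-fold either way, at a mean of at least 0.5 FPKM. The longest locus naming a gene was used. Oprm1 had 2 loci of equal span at 24 h, and the choice of the one in ordered position was made after the table was read. Locus starts are given 1-based. Lengths and coding sequences came from GENCODE transcripts by symbol. All 7 members were named, of the lists each gene past the fold (other names are marked or serve as tissue checks), and the 3 genes nearest in pattern to each of the 4 members that could be compared. The members and lists were chosen with earlier results of these data known. Alternatives were the pseudocount, the level limit, the fold, centring, trends over length and span, and the choice of locus.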

Additional observations from a re-analysis of the deposited data

Results flagged for a closer look

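Oprm1 had a further locus at 24 h that the comparisons above did not use. It has the same bounds as the locus reported, and it is listed out of the order of its neighbours in the table. It was at 0.503 FPKM in saline and 0.608 in cocaine, a log2 ratio of 0.23, beside 0.103 and 0.147 for the locus reported. Its mean of 0.555 FPKM is past the limit of 0.5 that the locus reported does not reach. The tables for 2 h and 7 d gave Oprm1 a single locus.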

How the results depend on the processing

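The count of opioid genes past the fold, 0 at each time, was also 0 with no pseudocount, centred on the median locus, with the trends over transcript length or locus span taken off, and with the locus of highest FPKM. A mean of at least 1 FPKM and a 1.5-fold limit are stricter and could only give 0. Adding 1 FPKM shrinks every ratio and could likewise only give 0. With no filter on low values it became 1 for each time, 2 h, 24 h and 7 d (Oprk1 for the earlier times, Oprm1 for the last). At 1.1-fold it was 2 at 2 h and 2 at 7 d. Of 112 log2 ratios recomputed under settings that can change them, 10 moved by 0.1 or more: 9 of Oprk1 and Oprm1 under another pseudocount, and Penk at 7 d (0.20 less the trend over transcript length). Penk at 2 h took the other sign, at 0.01 less that trend. Oprd1 has no length of its own at 2 h and 24 h. Scaling the FPKM to equal medians moved no member's log2 ratio of highest to lowest group by over 0.06. By Pearson correlation, 1 of 12 genes named as like a member was named again. No paired analysis was possible because each value is pooled over both libraries, and leaving out a library could not be run for the same reason. The tables hold no depth, and values under 0.5 FPKM are the least certain.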
